A study of Mus musculus with 14 samples.

Results

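Untreated bone marrow-derived macrophages of batch 2 were compared with untreated macrophages of batches 1 and 3. These cells are macrophages grown in culture from mouse bone marrow precursors. The members were chosen by 2 labels, untreated and the batch: 2 libraries of batch 2 (replicates 2 and 5) against 4 libraries, 2 of batch 1 (replicates 1 and 4) and 2 of batch 3 (replicates 3 and 6). They are 6 of the 14 libraries of a study of macrophages given the fluid of mast cell cultures. The other 8 libraries, 5 given mast cell supernatant and 3 given mast cell trap supernatant for 3.5 h, also carry batch labels: batch 1 and batch 3 each have 2 libraries given mast cell supernatant and 1 given trap supernatant, and batch 2 has 1 of each. They were used to see whether the genes that differed in untreated cells differed there too. All 14 are labelled wild type; strain, age and sex of the mice, the growth factor and the number of animals behind a batch are not stated in the sources used here. Whether a batch marks an animal, a culture or a sequencing run is not stated either. The p-values therefore measure the spread between these libraries, which may be technical. Only autosomal genes are described.

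Macrophages grown from marrow take up and digest particles and lipids through a large lysosomal system, sense microbes through Toll-like and Fc receptors, and present peptides to T cells on MHC class II molecules, whose genes are switched on together by the coactivator CIITA. Colony-stimulating factor 1, acting through its receptor Csf1r, keeps them alive. Bone marrow also holds adherent stromal cells, which make fibrillar collagens, matrix cross-linking enzymes and contractile proteins such as smooth muscle actin.

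Total counts were 13455686 to 13552948 per library in batch 2, 20275640 to 22720419 in batch 1 and 16494926 to 16771674 in batch 3. On the first principal component of the autosomal values, which held 59.5% of the variance, the batch 2 libraries lay at 46.4 and 49.8 and the 4 others between -30.3 and -19.9. Libraries of the same batch differed from each other by a chi-square per degree of freedom of 1.82 (batch 1), 3.71 (batch 2) and 14.2 (batch 3), and libraries of different batches by 31.5 to 74.5. The labels do not say whether the libraries of a batch come from 1 culture; if they do, 1 culture is compared with 2. Mitochondrial ribosomal RNA took 0.0323% to 0.0394% of the counts in batch 2 and 0.163% to 0.323% in the others, and the 10 most abundant genes took 7.39% to 7.52% against 9.52% to 10.6%. These library features moved with batch 2, and their part in the differences below was not tested.

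**Figure D1:**
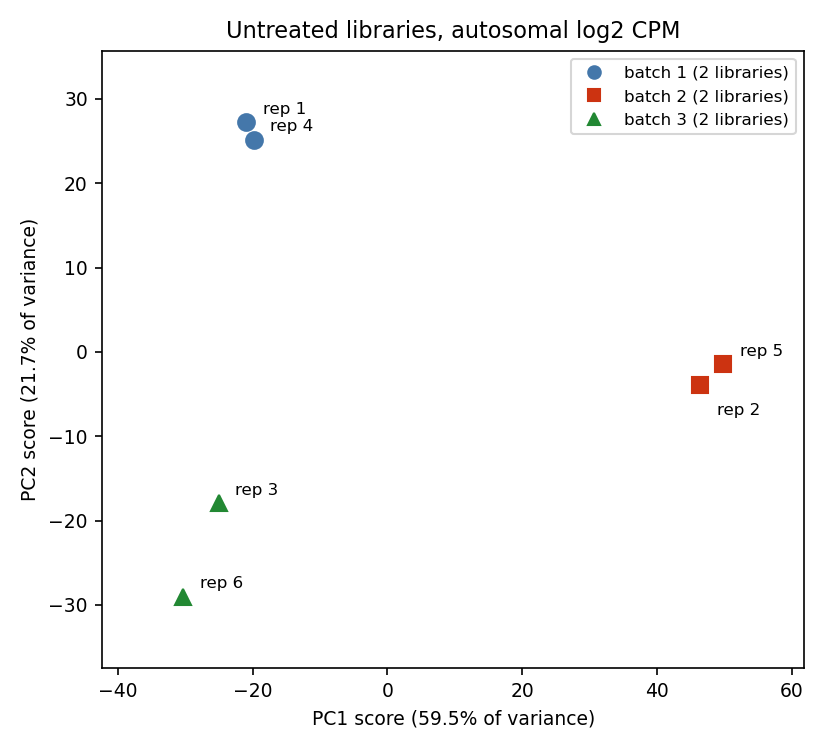
First and second principal component scores of the 6 untreated libraries over autosomal log2 CPM; each point is a library and its shape and colour give the batch. The batch 2 libraries lie at 46.4 and 49.8 on the first component, which holds 59.5% of the variance, apart from the 4 others.

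The batch 3 libraries stood apart in 1 gene that goes against what a macrophage library labelled wild type usually holds. Lyz2, which encodes lysozyme M (GRCm38, chromosome 10, 117277331 to 117282321), had 1 count in each untreated batch 3 library, against 69920 and 68853 counts in batch 2 and 197676 and 224532 in batch 1. The treated libraries of batch 3 held 2, 2 and 1 counts. In the untreated libraries the level per total count was 85464 times higher in batch 2 than in batch 3 (exact 95% interval 23658 to 705707, counting error only). Batch 2, at 5159 and 5117 CPM (counts scaled to library size), also lay below batch 1, at 9749 and 9882. The neighbouring paralogue Lyz1, whose similar sequence can share reads with Lyz2, was not low in batch 3: it had 24.9 and 21.9 CPM there, 3.47 and 4.01 in batch 2 and 9.62 and 11.2 in batch 1. The Lyz2 locus is widely used to carry Cre recombinase for deletion in myeloid cells; no label names an allele there, and the cause of its near absence was not tested. Counts for most gene lists are therefore also given without batch 3, as batch 2 against batch 1 only. In that fit 5338 of 12378 autosomal genes (43.1%) passed, 2604 higher and 2734 lower in batch 2, so its list counts are to be read against a larger share of calls.

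**Figure D2:**
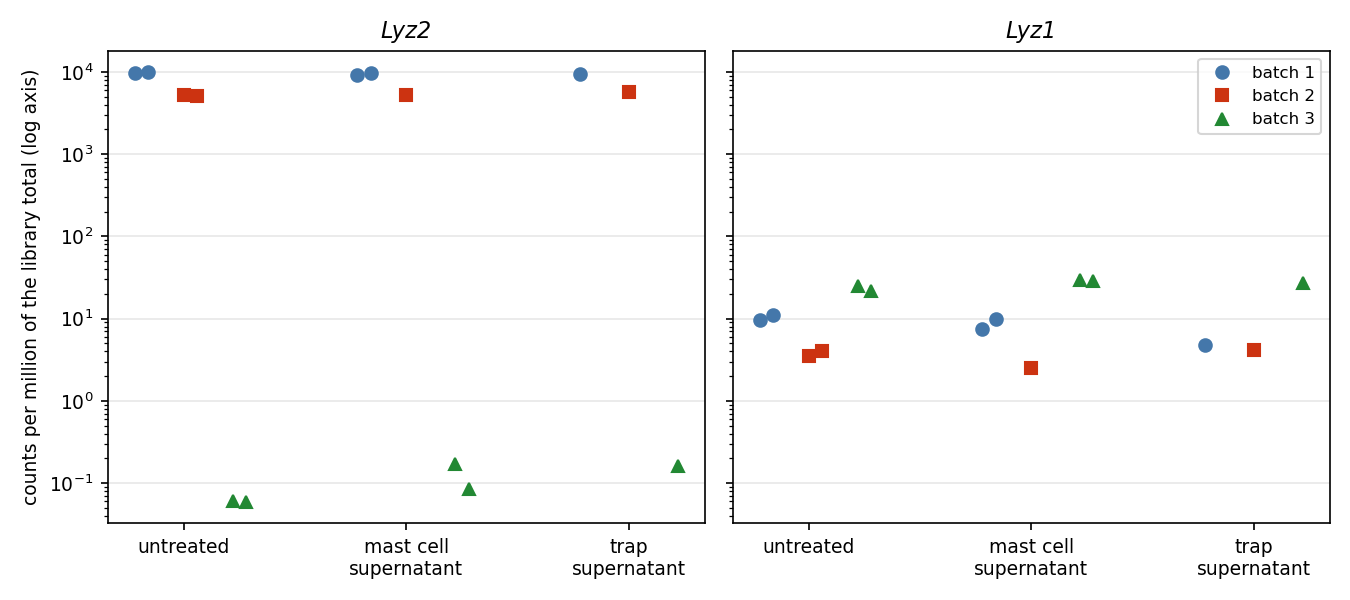
CPM of Lyz2 (left) and Lyz1 (right) in all 14 libraries by condition, on a log axis; each point is a library, with shape and colour for the batch. Lyz2 lies at 0.0596 to 0.171 CPM in the 5 libraries of batch 3 and at 5117 to 9882 in the 9 others.

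The baseline programme of the untreated cells was led by iron storage, lysosomal and antigen-processing genes. Of 20478 autosomal protein-coding genes, 10471 to 10622 per library reached 1 TPM, a level scaled to transcript length and to the library, and 110 to 123 reached 1000 TPM. Ftl1, the ferritin light chain, had the highest mean over the 6 libraries, with 24584 and 25243 TPM in batch 2, 22761 and 23257 in batch 1, and 22317 and 23136 in batch 3. Lyz2 was above it in both batch 1 libraries, at 23320.1 and 23587 TPM. Ferritin heavy chain Fth1, the lysosomal proteases Ctsd, Ctss and Ctsb, the lysosomal activator precursor Psap, galectin-3 Lgals3, B2m of MHC class I, the scavenger protein Cd68, the signalling adaptor Tyrobp and the glycoprotein Gpnmb followed among the 15 highest, beside the housekeeping genes Eef1a1, Rplp1 and Actb; Lyz2 belonged to them only through batches 1 and 2. The defining macrophage markers were present in every library, as the label says. Csf1r, the receptor they depend on, stood at 1309 and 1306 TPM in batch 2, 1303 and 1321 in batch 1, and 1365 and 1825 in batch 3. Spi1, the transcription factor PU.1, had 1042 and 1141 TPM in batch 2, 1057 and 1022 in batch 1, and 976 and 1046 in batch 3. Adgre1, which encodes F4/80, had 1976 and 1903 TPM in batch 2, 1579 and 1619 in batch 1, and 1957 and 2268 in batch 3. In edgeR's test between batch 2 and the other batches none of the 3 passed (adjusted p = 0.0928 for Csf1r, 0.485 for Spi1 and 0.580 for Adgre1). The test scaled libraries by TMM, a normalisation that the TPM values lack, so the scales differ. In TMM-normalised CPM, Csf1r had 2152 and 2187 in batch 2, 2493 and 2549 in batch 1, and 2566 and 3258 in batch 3. Ftl1 had 9377 and 9814 in batch 2, 10103 and 10410 in batch 1, and 9734 and 9584 in batch 3. Csf1r was called lower in batch 2 by DESeq2 (adjusted p = 0.0336) and, like Spi1, in edgeR against batch 1 only, by 0.22 and 0.15 on the log2 scale. Adgre1 did not pass in either of these.

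Batch 2 differed from the other batches in many genes. Of 12559 autosomal genes tested, 2413 (19.2%) passed a false discovery rate of 0.05 in edgeR's quasi-likelihood F test, 1109 (8.83%) higher and 1304 (10.4%) lower in batch 2; 307 were at least 2-fold higher and 394 at least 2-fold lower. In all 2413 both batch 2 libraries lay on the same side of the 4 others. The share of all tested genes that do so was not counted, so this adds nothing to the test. The same holds wherever no overlap is stated below for single genes. Counts of list members below are to be read beside the 8.83% and 10.4% of all genes. The median log2 difference over all autosomal genes tested was 0.01. Among the genes at least 4-fold apart, 160 were higher and 116 lower. Of all 1109 higher genes, 154 had a mean under 1 CPM in batches 1 and 3. With the counts of each batch summed, so that 1 batch stood against 2, 312 genes (2.48%) passed. Without batch 2 replicate 2 the count was 669, and without batch 2 replicate 5 it was 577; the arm then holds 1 library, assumed to vary like the others. Of the 131 genes past the threshold that the rule for naming genes picks, 53 stayed past it in all 17 alternatives, 18 were lost only with summed counts and 60 when 1 library was left out.

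The largest rises were in genes of the extracellular matrix and of contractile cells. Collagen I chain Col1a1 (chromosome 11, 94936224 to 94953042) had 70.6 and 72.04 CPM in batch 2, 5.25 and 7.30 in batch 1, and 2.74 and 6.05 in batch 3. Both batch 2 libraries lay far above the 4 others, and the level was 13.2-fold higher (log2 difference 3.72 ± 0.25, adjusted p = 4.41e-05). Serpinh1, the chaperone HSP47 that folds collagen, had 14.9 and 16.4 CPM in batch 2, 1.13 and 1.34 in batch 1, and 0.746 and 1.27 in batch 3 (13.7-fold higher, log2 difference 3.78 ± 0.21, adjusted p = 1.84e-05). Col5a1 and Col5a2, which encode the chains of collagen V, were 11.7-fold and 11.2-fold higher. Aebp1, a collagen-binding secreted protein, had 11.9 and 11.3 CPM in batch 2, 1.03 and 1.11 in batch 1, and 0.995 and 1.21 in batch 3 (log2 difference 3.41 ± 0.18, adjusted p = 1.75e-05). In each of these genes the lowest batch 2 library was above the highest of the others, which the rule for naming them requires. Taking all collagen genes, a family chosen after its values were seen, 22 were tested, 16 rose and 1 fell, with a median log2 difference of 3.06 beside 0.01 for all genes. Lysyl oxidases, which cross-link collagen, were 4 tested and 3 higher, chosen in the same way. Genes near absent in the other batches passed the filter on low counts only through batch 2, so these counts are a description.

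The other genes among the largest rises include secreted and matrix proteins. Ccn1 and Ccn2, secreted adhesion-modulating proteins known as targets of the YAP coactivator and of TGF-beta, were 15.96-fold and 12.2-fold higher. For Ccn2 the libraries held 39.1 and 43.9 CPM in batch 2, 2.52 and 2.96 in batch 1, and 5.35 and 2.90 in batch 3 (log2 difference 3.61 ± 0.23, adjusted p = 3.88e-05). Ccn1 lay under 1 CPM in every library outside batch 2, with 7.37 and 9.21 CPM in batch 2, 0.257 and 0.231 in batch 1, and 0.933 and 0.726 in batch 3. Thbs2, a thrombospondin of the matrix, had 12.5 and 13.1 CPM in batch 2, 0.463 and 0.877 in batch 1, and 0.622 and 1.45 in batch 3 (log2 difference 3.91 ± 0.31, adjusted p = 1.21e-04). Mmp2, gelatinase A of stromal cells, was 13.9-fold higher and the metalloproteinase inhibitor Timp3 12.02-fold higher. These 12 genes, Col1a1, Col5a1, Col5a2, Serpinh1, Aebp1, Ccn1, Ccn2, Thbs2, Mmp2, Timp3, Myl9 and Tagln, are the 12 largest rises by the rule for naming genes. Each stayed past the threshold under every alternative run, including leaving out any 1 library and summing the counts of each batch.

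**Figure D3:**
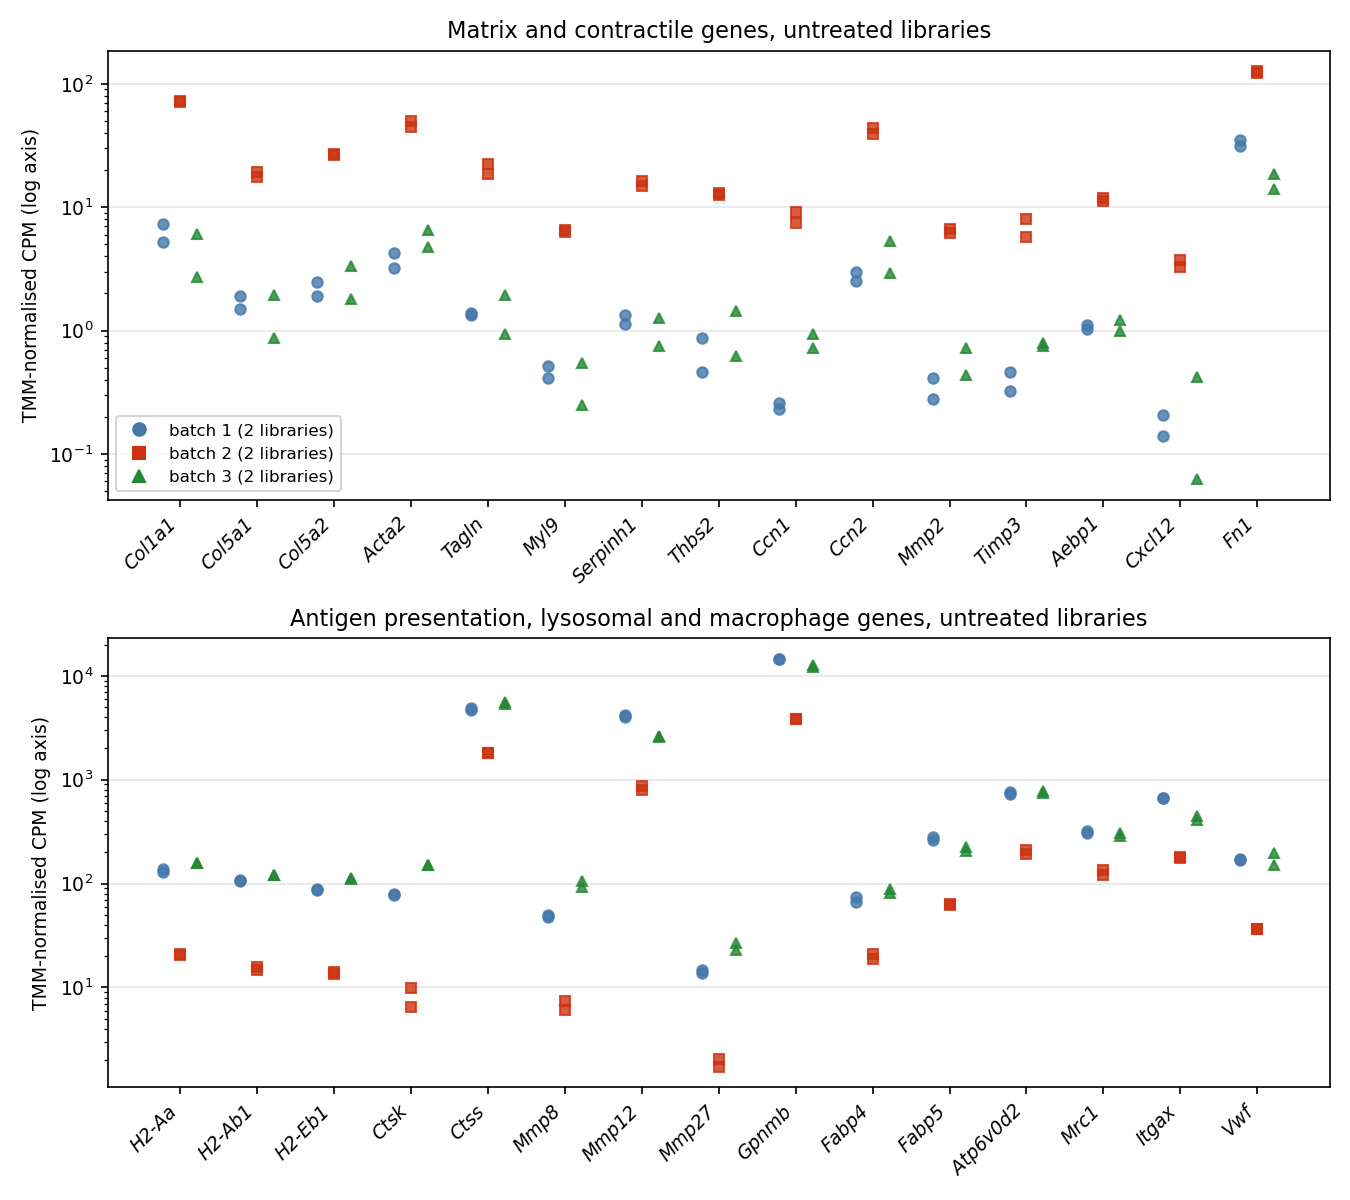
TMM-normalised CPM of 15 matrix and contractile genes (top) and 15 antigen presentation, lysosomal and macrophage genes (bottom) on a log axis; each point is an untreated library, with shape and colour for the batch. The squares of batch 2 lie above both other batches in the top panel, as Col1a1 at 70.6 and 72.0 CPM, and below both in the bottom panel, as Ctsk at 9.92 and 6.54 CPM.

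The tested fibroblast and stromal markers were higher in batch 2. Of its 13 genes 8 were tested, and 8 rose, with a median log2 difference of 3.26, beside 8.83% of all genes that rose. The summed level of the list was 154 to 159.7 TPM in batch 2, 11.1 to 14.3 in batch 1 and 11.1 to 19.7 in batch 3. Cxcl12, the chemokine by which marrow stroma holds blood progenitors, had 3.72 and 3.30 CPM in batch 2, 0.206 and 0.139 in batch 1, and 0.0622 and 0.423 in batch 3 (log2 difference 4.06 ± 0.44, adjusted p = 5.71e-04). Periostin Postn, a matrix protein of fibroblasts, had 22.7 and 20.2 CPM in batch 2, 2.37 and 2.86 in batch 1, and 1.87 and 4.47 in batch 3 (log2 difference 2.89 ± 0.26, adjusted p = 2.30e-04). Pdgfrb, a growth factor receptor of mesenchymal cells, had 5.65 and 4.43 CPM in batch 2, 0.874 and 0.785 in batch 1, and 0.560 and 1.15 in batch 3 (log2 difference 2.57 ± 0.29, adjusted p = 6.20e-04). In all 3 genes the lowest batch 2 library was above the highest other library. The other 5 of the 13, Pdgfra, Dcn, Lum, Lepr and the X-linked Bgn, were not among the autosomal genes tested, and Lum was at 0 counts in all 6 libraries. As with the collagens, the count of 8 is a description. None of the 8 differed between batches 1 and 3 at the threshold. All 8 also rose without batch 3 (median 3.35) and with counts summed per batch. In bulk RNA, fewer cells of a type and less RNA per cell cannot be told apart, so these values do not say whether stromal cells or the macrophages carried the transcripts; that was not tested.

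Contractile genes of smooth muscle rose, while most other actin genes did not pass. Smooth muscle actin Acta2 had 44.4 and 49.97 CPM in batch 2, 3.19 and 4.25 in batch 1, and 4.73 and 6.53 in batch 3 (log2 difference 3.35 ± 0.21, adjusted p = 3.01e-05). The actin-binding protein transgelin Tagln had 18.7 and 22.3 CPM in batch 2, 1.34 and 1.39 in batch 1, and 0.933 and 1.93 in batch 3 (14.6-fold higher, log2 difference 3.87 ± 0.22, adjusted p = 2.02e-05). The myosin light chain Myl9 had 6.34 and 6.54 CPM in batch 2, 0.514 and 0.416 in batch 1, and 0.249 and 0.544 in batch 3 (14.6-fold higher, log2 difference 3.87 ± 0.28, adjusted p = 7.09e-05). These 3 genes are typical of smooth muscle cells and myofibroblasts. Of the 18 tested genes of the actin list, 5 rose and 3 fell, with a median of -0.1. The abundant cytoplasmic actin Actb had 4681 and 5257 CPM in batch 2, 5539.7 and 5718 in batch 1, and 4821 and 3994 in batch 3 and did not pass (adjusted p = 0.958). Calponin 2, Cnn2, fell, with 24.1 and 26.8 CPM in batch 2, 53.02 and 50.9 in batch 1, and 41.6 and 42.5 in batch 3 (log2 difference -0.88 ± 0.13, adjusted p = 0.00210), a call lost when counts are summed per batch. Without batch 3, 6 of the list rose and 11 fell. The promoter of Myl9 is shown because it holds a CArG box, the motif bound by serum response factor, which drives many contractile genes. The stretch runs from 250 to 101 bases before the RefSeq start (chr2:156775214-156775363, GRCm38.p6, + strand), 5′ to 3′, with the CArG box in capitals.
Myl9: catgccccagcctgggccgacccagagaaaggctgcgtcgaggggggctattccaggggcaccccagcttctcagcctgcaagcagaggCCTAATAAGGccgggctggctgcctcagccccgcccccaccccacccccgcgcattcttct
Among the 32851 RefSeq promoter windows, each from 250 bases before to 50 after a start, 1.63% held a CArG box on either strand. Of the 17 actin list genes with a window, 3 held one: Myl9, which rose, and Actg1 and Cnn2, which fell. Of the 12 largest rises, 7 had a window and 1, Myl9, held the motif. A match is a description of the letters and not a bound site.

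The 12 largest falls by the same rule were Ctsk, Mpo, Penk, Mmp8, Ksr2, Mamdc2, Mmp27, Ak8, Ntn1, H2-Ab1, F7 and H2-Eb1. They share no single list. Penk, which encodes the opioid precursor proenkephalin, had 0.758 and 0.422 CPM in batch 2, 5.71 and 5.31 in batch 1, and 7.22 and 8.10 in batch 3 (10.97-fold lower, log2 difference -3.46 ± 0.34, adjusted p = 3.36e-04). Ak8, an adenylate kinase, had 0.965 and 1.97 CPM in batch 2, 15.3 and 15.9 in batch 1, and 12.6 and 16.3 in batch 3 (10.2-fold lower, log2 difference -3.35 ± 0.26, adjusted p = 1.15e-04). Mmp27, a matrix metalloproteinase, had 1.72 and 2.04 CPM in batch 2, 13.8 and 14.8 in batch 1, and 23.01 and 26.7 in batch 3 (10.3-fold lower, log2 difference -3.37 ± 0.36, adjusted p = 5.05e-04). In the 3 genes both batch 2 libraries were below all others, which the rule for naming them requires. Ksr2, a scaffold of the Ras pathway, had 1.10 and 0.914 CPM in batch 2, 13.2 and 12.7 in batch 1, and 7.78 and 10.04 in batch 3 (10.8-fold lower, log2 difference -3.43 ± 0.31, adjusted p = 2.28e-04). The guidance factor Ntn1 had 1.17 and 1.05 CPM in batch 2, 6.63 and 4.94 in batch 1, and 8.96 and 15.2 in batch 3 (log2 difference -2.99 ± 0.52, adjusted p = 0.00526), and its call, like that of the granule enzyme Mpo, was lost without either batch 2 library.

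MHC class II genes, which present peptides to helper T cells, were lower as a group. Of the 13 genes on the list, 13 were tested, 8 fell and 0 rose, with a median log2 difference of -0.87, where 10.4% of all genes fell. The summed level of the list was 433 to 444 TPM in batch 2, 1618 to 1639 in batch 1 and 1669 to 1746 in batch 3. The alpha chain H2-Aa (chromosome 17, 34282744 to 34287823) had 20.5 and 21.1 CPM in batch 2, 138 and 129 in batch 1, and 158 and 157 in batch 3. Its level was 6.98-fold lower in batch 2 (log2 difference -2.80 ± 0.12, adjusted p = 5.12e-06), and the batches did not overlap. The beta chains were lower to a like degree. H2-Ab1 had 14.6 and 15.9 CPM in batch 2, 106 and 108 in batch 1, and 120.2 and 122 in batch 3 (log2 difference -2.90 ± 0.10, adjusted p = 4.70e-06). H2-Eb1 had 14.2 and 13.4 CPM in batch 2, 89.1 and 86.1 in batch 1, and 111 and 113 in batch 3 (log2 difference -2.86 ± 0.15, adjusted p = 1.76e-05). All 3 chain genes thus lay below every library of the other batches. The invariant chain Cd74, which guides class II molecules to the endosome, had 125 and 126 CPM in batch 2, 627 and 624 in batch 1, and 587 and 584 in batch 3 (log2 difference -2.27 ± 0.07, adjusted p = 3.96e-06). Ciita, the coactivator of these genes, was low everywhere, with 2.07 and 2.67 CPM in batch 2, 7.35 and 6.60 in batch 1, and 4.11 and 6.89 in batch 3 (log2 difference -1.40 ± 0.29, adjusted p = 0.0107). Both genes again showed no overlap. The peptide exchange genes H2-DMa and H2-DMb1 fell less, by 0.87 and 0.76 on the log2 scale. Of the costimulatory genes, Cd86 fell (log2 difference -1.30 ± 0.18, adjusted p = 0.00180), while Cd80 and Cd40 did not pass (adjusted p = 0.395 and 0.0948). Without batch 3, 8 of 12 tested fell and 1 rose; with counts summed per batch, 4 of 13 fell.

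The upstream sequences of H2-Aa and H2-Eb1 are shown because class II promoters share a Y box, an inverted CCAAT element bound by NF-Y. Both stretches run from 150 to 1 bases before the RefSeq start on GRCm38.p6, chr17:34287824-34287973 on the - strand and chr17:34305717-34305866 on the + strand, 5′ to 3′, with the letters CTGATTGG in capitals.
H2-Aa: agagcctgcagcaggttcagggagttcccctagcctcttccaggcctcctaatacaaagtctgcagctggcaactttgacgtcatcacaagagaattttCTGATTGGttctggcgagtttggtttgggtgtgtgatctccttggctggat
H2-Eb1: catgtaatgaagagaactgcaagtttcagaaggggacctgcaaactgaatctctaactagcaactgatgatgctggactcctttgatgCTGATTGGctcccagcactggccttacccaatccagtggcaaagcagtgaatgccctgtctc
The motif begins 51 bases before the start of H2-Aa and 62 bases before that of H2-Eb1. CTGATTGG was found on either strand in 4.1% of the 32851 windows. Of the 8 class II list genes with a window, 3 held it: H2-Aa, H2-Eb1 and H2-Oa. H2-Oa had 0.276 and 0.211 CPM in batch 2, 0.103 and 0.231 in batch 1, and 0.622 and 0.665 in batch 3 and did not pass (adjusted p = 0.613).

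Lysosomal genes, which lead the baseline, were lower in batch 2. Of 27 tested, 19 fell and 0 rose, with a median of -0.46; without batch 3, 24 of 27 fell, and with counts summed per batch 3 did. The summed level was 40115 to 40638 TPM in batch 2, 59907 to 60799 in batch 1 and 59444 to 64222 in batch 3. Ctsk, cathepsin K (chromosome 3, 95499256 to 95509362), the collagen-degrading protease of osteoclasts, had 9.92 and 6.54 CPM in batch 2, 77.6 and 79.5 in batch 1, and 149.6 and 150.4 in batch 3. It was 13.8-fold lower in batch 2 (log2 difference -3.79 ± 0.39, adjusted p = 4.26e-04) and also differed between batches 1 and 3 (adjusted p = 5.20e-04). Ctss, the protease that trims the invariant chain, had 1795 and 1816 CPM in batch 2, 4697 and 4907 in batch 1, and 5344 and 5619 in batch 3 (log2 difference -1.51 ± 0.10, adjusted p = 4.81e-05). The proton pump subunit Atp6v0d2 had 211 and 192 CPM in batch 2, 754 and 737 in batch 1, and 738 and 771 in batch 3 (log2 difference -1.90 ± 0.07, adjusted p = 4.70e-06).Psap, the precursor of the saposins, had 4679 and 4711 CPM in batch 2, 10283 and 10315 in batch 1, and 9865 and 10514 in batch 3 (log2 difference -1.13 ± 0.08, adjusted p = 7.99e-05), a call lost with summed counts. Among the tested cathepsins, a family chosen after its values were seen, 9 of 13 fell and 0 rose. Ctsd, with 8237 and 8707 CPM in batch 2, 11708 and 12034 in batch 1, and 9749.9 and 9843 in batch 3, did not pass in edgeR (adjusted p = 0.0614) but was called lower by DESeq2 (adjusted p = 0.00964) and limma-voom (adjusted p = 0.0458). The lipase Lipa and the cholesterol transporter Npc1 did not pass in edgeR (adjusted p = 0.638 and 0.319).

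Genes of lipid-laden macrophages and of cholesterol export were lower too. In the list of lipid-associated macrophage genes 12 of 14 fell and 0 rose (median -0.58); without batch 3 the count was 13, and with counts summed per batch it was 4. Gpnmb, a lysosomal membrane glycoprotein, had 3806 and 3809 CPM in batch 2, 14463 and 14665 in batch 1, and 12280.5 and 12715 in batch 3 (log2 difference -1.83 ± 0.11, adjusted p = 2.72e-05). The fatty acid binding proteins Fabp4 and Fabp5 were lower by 1.96 and 1.96 on the log2 scale; Fabp5 had 62.7 and 63.04 CPM in batch 2, 262 and 284 in batch 1, and 227 and 206 in batch 3. Lpl, the lipoprotein lipase, and Spp1, osteopontin, did not pass (adjusted p = 0.608 and 0.962). Of 12 tested targets of the sterol receptor LXR, 5 fell and 0 rose (median -0.55); without batch 3, 8 fell and 1 rose, and with summed counts 2 fell. Phospholipid transfer protein Pltp had 371 and 398 CPM in batch 2, 1041 and 1104 in batch 1, and 1102 and 1194 in batch 3 (log2 difference -1.53 ± 0.09, adjusted p = 1.84e-05). The cholesterol exporter Abcg1 had 119.6 and 114 CPM in batch 2, 299 and 299 in batch 1, and 242 and 415 in batch 3 (log2 difference -1.42 ± 0.19, adjusted p = 0.00141). Its partner Abca1 had 128 and 110.4 CPM in batch 2, 257 and 255 in batch 1, and 291 and 553 in batch 3; both libraries of batch 3 differed from each other, and the call (log2 difference -1.51 ± 0.32, adjusted p = 0.0121) was lost without either batch 2 library. Of 28 cholesterol and fatty acid synthesis genes, 1 rose and 0 fell (median 0.39). That count differs between fits: 8 passed in DESeq2, 14 rose and 5 fell without batch 3, and 9 rose in treated libraries.

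**Figure D4:**
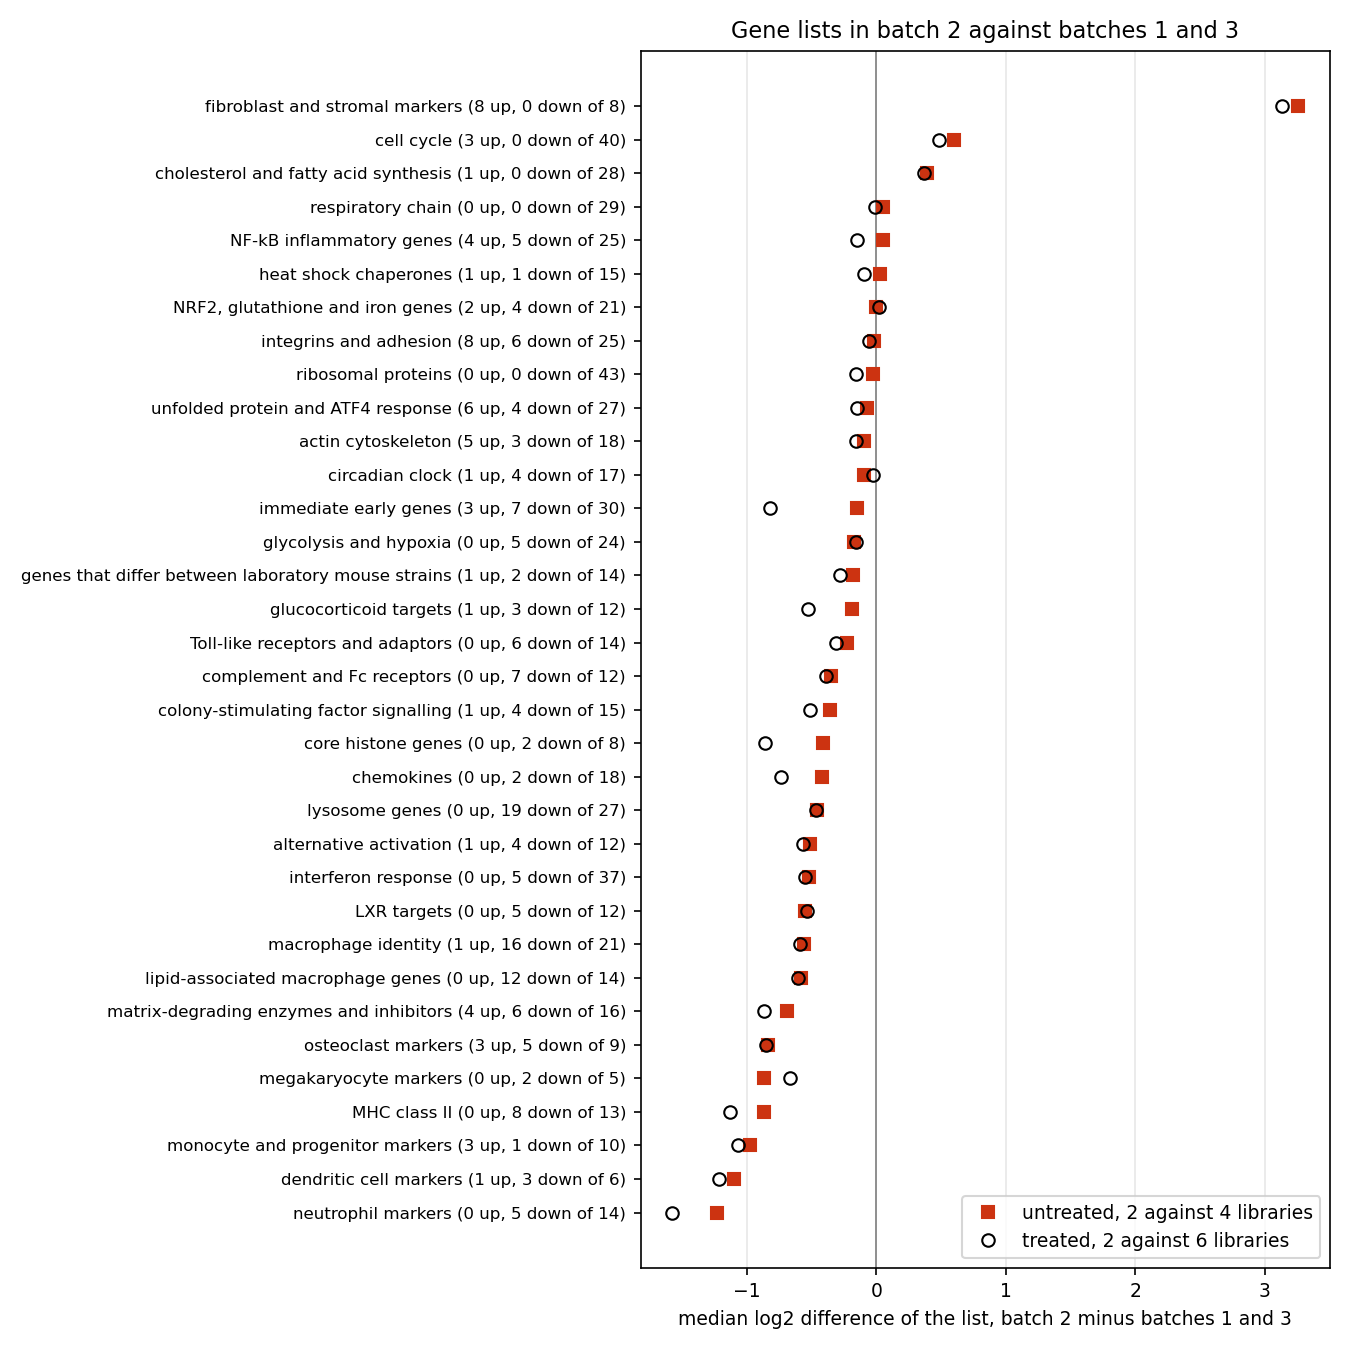
Median log2 difference of each gene list with at least 5 tested genes, batch 2 minus batches 1 and 3; squares are untreated libraries, open circles treated libraries, and the labels count the members past the threshold in the untreated libraries. The stromal list lies at 3.26, and macrophage identity lies at -0.56.

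Most tested identity genes of macrophages were lower in batch 2. Of 21 identity genes tested, 16 fell, 1 rose and 4 did not pass (Csf1r, Adgre1, Spi1 and Lyz2), with a median of -0.56; without batch 3, where Lyz2 could be compared, 19 fell and 1 rose, and with counts summed per batch 5 fell and 0 rose. The mannose receptor Mrc1 had 136 and 120.1 CPM in batch 2, 305 and 319.7 in batch 1, and 306 and 285 in batch 3 (log2 difference -1.24 ± 0.08, adjusted p = 4.66e-05). The efferocytosis receptor Mertk had 35.3 and 34.6 CPM in batch 2, 64.8 and 60.4 in batch 1, and 62.7 and 75.9 in batch 3 (log2 difference -0.91 ± 0.11, adjusted p = 7.75e-04). In both genes the 4 libraries of batches 1 and 3 lay above both of batch 2. The exception was Cx3cr1, the fractalkine receptor, with 142 and 143 CPM in batch 2, 115 and 108 in batch 1, and 86.8 and 94.1 in batch 3 (log2 difference 0.50 ± 0.11, adjusted p = 0.0154), a call lost without either batch 2 library. Fc and Toll-like receptors fell in part: 7 of 12 complement and Fc receptor genes and 6 of 14 Toll-like receptor and adaptor genes fell and 0 rose in either list; without batch 3, 8 and 7 fell and 1 and 2 rose. Fcgr4 had 12.7 and 12.3 CPM in batch 2, 35.9 and 39.9 in batch 1, and 49.01 and 40.1 in batch 3 (log2 difference -1.72 ± 0.14, adjusted p = 1.38e-04). Tlr4, the endotoxin receptor, had 22.9 and 19.2 CPM in batch 2, 40.8 and 41.7 in batch 1, and 36.01 and 41.8 in batch 3 (log2 difference -0.93 ± 0.11, adjusted p = 8.47e-04).

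Markers of other blood lineages gave a mixed picture. Osteoclast markers were divided, with 5 of 9 lower (Ctsk, Atp6v0d2, Acp5, Dcstamp, Itgb3) and 3 higher (Ocstamp, Nfatc1, Tnfrsf11a). The calls of Ocstamp and Tnfrsf11a were lost in 7 and 9 of the 17 alternatives, and those of Ctsk, Atp6v0d2 and Acp5 in 0. Without batch 3, 3 rose and 6 fell. Acp5, tartrate-resistant acid phosphatase, had 22.1 and 23.3 CPM in batch 2, 52.7 and 48.1 in batch 1, and 42.7 and 45.6 in batch 3 (log2 difference -1.06 ± 0.11, adjusted p = 3.77e-04). Neutrophil markers fell in 5 of 14 (Mmp8, Mpo, Prtn3, Fcnb, Csf3r), but their summed level was 387 to 457 TPM in batch 2, 399.7 to 412 in batch 1 and 1013 to 1066 in batch 3, and 11 of the 14 differed between batches 1 and 3. Mmp8, the neutrophil collagenase, had 7.37 and 6.04 CPM in batch 2, 47.3 and 49.96 in batch 1, and 92.4 and 106 in batch 3 (log2 difference -3.45 ± 0.41, adjusted p = 8.25e-04). The calls of Mpo and Prtn3 were lost when any 1 library of batch 2 or of batch 3 was left out. Of 6 tested dendritic cell markers, 3 fell (Itgax, Irf8, Batf3) and 1 rose (Fscn1, log2 difference 2.27 ± 0.37, adjusted p = 0.00381). The integrin Itgax, which encodes CD11c and marks dendritic cells and these macrophages, had 178 and 181 CPM in batch 2, 663 and 668 in batch 1, and 410.4 and 452 in batch 3 (log2 difference -1.61 ± 0.21, adjusted p = 0.00128). The batches did not overlap in Itgax, and batch 3 lay between batches 2 and 1. Of 10 tested monocyte and progenitor markers, 3 rose (Fn1, Treml4, Cd34) and 1 fell (Ccr2). Megakaryocyte markers fell in 2 of 5 tested (Vwf and Pf4), and 0 rose. Von Willebrand factor Vwf, known from endothelium and megakaryocytes, had 36.9 and 36.4 CPM in batch 2, 171 and 169 in batch 1, and 152 and 195 in batch 3 (log2 difference -2.23 ± 0.11, adjusted p = 1.29e-05). Mast cell markers were hardly present: 3 of 14 were tested, 0 passed (0 under 0.05 before adjustment in edgeR, and 0 past the threshold in DESeq2 or limma-voom), and Mcpt4, Tpsb2 and Tpsab1 were at 0 counts.

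Proteases and adhesion genes had members in both directions. Of 16 tested genes of the matrix-degrading list, 4 rose (among them Mmp2, Timp3 and Adam8) and 6 fell (Mmp8, Mmp27, Mmp12, Timp2, Mmp19, Mmp13). Mmp12, the macrophage elastase, had 878 and 802 CPM in batch 2, 4172 and 3997 in batch 1, and 2646 and 2593 in batch 3 (log2 difference -2.0 ± 0.22, adjusted p = 6.50e-04). Without batch 3, 5 genes of the matrix-degrading list rose and 8 fell. Of 25 integrin and adhesion genes, 8 rose and 6 fell. Fibronectin Fn1 had 127 and 123 CPM in batch 2, 31.5 and 35.00 in batch 1, and 14.1 and 18.5 in batch 3 (log2 difference 2.32 ± 0.29, adjusted p = 0.00105), and it also differed between batches 1 and 3 (adjusted p = 4.61e-04). Itga5, the fibronectin receptor chain, had 1086 and 1166 CPM in batch 2, 611 and 638 in batch 1, and 701 and 639 in batch 3 (log2 difference 0.80 ± 0.08, adjusted p = 3.02e-04). Itgam, which encodes CD11b, had 212 and 203 CPM in batch 2, 340.2 and 341 in batch 1, and 286 and 293 in batch 3 (log2 difference -0.60 ± 0.09, adjusted p = 0.00302), a call lost without batch 2 replicate 5.

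Lists of metabolic and hormone-response genes held both risers and fallers. Of 27 genes of the unfolded protein and ATF4 response, 6 rose and 4 fell, with a median of -0.07; without batch 3, 8 rose and 13 fell. The 6 risers were Asns, Phgdh, Shmt2, Mthfd2, Slc7a5 and Edem1, of which the first 4 are enzymes of amino acid and folate metabolism. Asparagine synthetase Asns rose, with 86.7 and 92.8 CPM in batch 2, 30.6 and 35.05 in batch 1, and 38.6 and 29.1 in batch 3 (log2 difference 1.43 ± 0.11, adjusted p = 1.15e-04). Phgdh, the first enzyme of serine synthesis, had 16.5 and 17.5 CPM in batch 2, 6.48 and 7.62 in batch 1, and 6.22 and 4.60 in batch 3 (log2 difference 1.44 ± 0.18, adjusted p = 0.00114). Atf4 itself did not pass (adjusted p = 0.638). The glucocorticoid targets also split: Fkbp5, a chaperone of the steroid receptor, had 68.5 and 69.3 CPM in batch 2, 33.5 and 32.3 in batch 1, and 33.8 and 23.3 in batch 3 (log2 difference 1.16 ± 0.14, adjusted p = 8.07e-04). The cell cycle inhibitor Cdkn1c had 9.10 and 9.77 CPM in batch 2, 39.9 and 36.1 in batch 1, and 67.9 and 69.5 in batch 3 (log2 difference -2.49 ± 0.32, adjusted p = 0.00117). Of 21 tested NRF2, glutathione and iron genes, 2 rose and 4 fell (among the latter Slc7a11, Prdx1 and Fth1), with a median of 0. Without batch 3, 8 rose and 8 fell. The riser Nqo1, a target of NRF2, had 10.3 and 9.63 CPM in batch 2, 2.98 and 2.82 in batch 1, and 3.98 and 3.69 in batch 3 (log2 difference 1.57 ± 0.19, adjusted p = 8.29e-04). Ribosomal protein genes gave 0 calls of 43 (5 under 0.05 before adjustment, and 2 past the threshold in DESeq2 and 1 in limma-voom), and respiratory chain genes 0 of 29 (2, 0 and 0). Without batch 3, 14 ribosomal protein genes fell and 1 rose, and 2 respiratory chain genes fell.

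Inflammatory genes differed in both directions. Of 25 tested genes of the NF-kB inflammatory list, 4 rose (Tnip1, Ptgs2, Icam1, Traf1) and 5 fell (Il1b, Rel, Nfkbiz, Tnfaip3, Tnfaip2), with a median of 0.05; without batch 3, 13 rose and 5 fell, and with counts summed per batch 0 passed. Il1b, the interleukin 1 beta precursor, had 1.79 and 2.04 CPM in batch 2, 2.98 and 4.29 in batch 1, and 4.29 and 3.39 in batch 3 (log2 difference -0.96 ± 0.26, adjusted p = 0.0320). Its call was lost without either batch 2 library, without batch 1 replicate 4 and without batch 3 replicate 3. The call of Ptgs2 was lost in 9 of the 17 alternatives. Traf1, an adaptor of tumour necrosis factor receptors, had 108 and 112 CPM in batch 2, 54.00 and 59.3 in batch 1, and 67.1 and 71.2 in batch 3 (log2 difference 0.81 ± 0.11, adjusted p = 0.00141). Of 18 chemokines, 2 fell (Pf4 and Ccl6) and 0 rose, beside 10.4% and 8.83% of all genes. Pf4, platelet factor 4, which macrophages also make, had 124 and 130.0 CPM in batch 2, 241 and 245 in batch 1, and 240.0 and 199 in batch 3 (log2 difference -0.87 ± 0.10, adjusted p = 6.58e-04). Traf1 and Pf4 showed no overlap between batches. Gbp2, an interferon-induced GTPase, had 16.9 and 14.9 CPM in batch 2, 39.6 and 48.99 in batch 1, and 49.1 and 57.6 in batch 3 (log2 difference -1.62 ± 0.16, adjusted p = 2.91e-04). Batch 3 held the most Gbp2 and batch 2 the least.

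Immediate early genes, which answer within minutes to growth factors or handling, were divided. Of 30, 3 rose (Fos, Fosl1, Myc) and 7 fell (Jun, Jund, Egr2, Atf3, Ier5, Btg2, Klf6), with a median of -0.15. The call of Myc was lost in 10 of the 17 alternatives, DESeq2 among them (adjusted p = 0.0783). Of all genes tested, 8.83% rose and 10.4% fell, so the risers were about as frequent as in all genes. Without batch 3, where 43.1% of all genes passed, 12 rose and 13 fell. Fos had 542 and 584 CPM in batch 2, 333 and 347 in batch 1, and 379 and 358 in batch 3 (log2 difference 0.67 ± 0.07, adjusted p = 5.60e-04), and Egr2 had 141 and 139 CPM in batch 2, 227 and 254 in batch 1, and 205 and 224 in batch 3 (log2 difference -0.70 ± 0.09, adjusted p = 0.00123). Both calls were lost when the counts of each batch were summed. Hspb1, a small heat shock protein also abundant in mesenchymal cells, had 1.03 and 1.05 CPM in batch 2, 0.411 and 0.231 in batch 1, and 0.187 and 0.181 in batch 3 (log2 difference 1.99 ± 0.44, adjusted p = 0.0146), lost without either batch 2 library. It was the only riser of 15 heat shock chaperones. Of 17 circadian clock genes, 1 rose and 4 fell, with a median of -0.1. Without batch 3, 8 of the clock genes rose and 5 fell, with a median of 0.28. The repressor Bhlhe41 had 36.9 and 33.5 CPM in batch 2, 89.3 and 85.9 in batch 1, and 88.8 and 73.1 in batch 3 (log2 difference -1.26 ± 0.11, adjusted p = 1.58e-04).

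Most genes of the colony-stimulating factor and alternative activation lists did not pass. Of 15 genes of colony-stimulating factor signalling, 1 rose (Il34) and 4 fell (Csf2ra, Csf2rb, Csf3r, Ccr2), with a median of -0.36; without batch 3, 2 rose and 9 fell, and with summed counts 0 passed. Il34, the second ligand of Csf1r, had 1.03 and 1.19 CPM in batch 2, 0.154 and 0.323 in batch 1, and 0.498 and 0.363 in batch 3 (log2 difference 1.74 ± 0.45, adjusted p = 0.0276), a call lost in several of the alternatives. Of 12 tested alternative activation genes, 1 rose (Myc) and 4 fell (Mrc1, Clec7a, Egr2, Folr2); without batch 3, 1 rose and 6 fell, and with summed counts 2 fell. The call of Myc was lost in 10 of the 17 alternatives. Clec7a, the beta-glucan receptor dectin-1, had 84.8 and 78.1 CPM in batch 2, 356 and 348 in batch 1, and 309 and 379 in batch 3 (log2 difference -2.10 ± 0.10, adjusted p = 1.15e-05). Of 14 tested genes known to differ between laboratory mouse strains, 1 rose (Raet1e) and 2 fell (Nnt, Cyfip2), against 19.2% of all genes called. Nnt, the mitochondrial transhydrogenase that is truncated in a widely used laboratory substrain, had 21.3 and 20.7 CPM in batch 2, 29.00 and 28.3 in batch 1, and 35.6 and 35.9 in batch 3 (log2 difference -0.62 ± 0.13, adjusted p = 0.0122), a call lost without either batch 2 library. Cyfip2, an actin regulator, had 92.1 and 84.2 CPM in batch 2, 159.7 and 159.6 in batch 1, and 157 and 144 in batch 3 (log2 difference -0.82 ± 0.08, adjusted p = 2.87e-04). Several genes given here lie outside the rule for naming genes and were chosen after their values were seen, so the alternatives were not run on each of them: Postn, Pdgfrb, Cd74, Ciita, Cd86, H2-Oa, Itga5, Mcm5 and Clec7a.

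The comparison of batch 1 with batch 3 gives the scale of difference between the other batches. With the 3 batches as separate groups, 1347 autosomal genes (10.7%) differed between batches 1 and 3, against 3290 (26.2%) between batches 2 and 1 and 4014 (32%) between batches 2 and 3. These counts move with single libraries. Between batches 1 and 3 they were 313 without batch 1 replicate 4, 319 without batch 1 replicate 1, 693 and 709 without batch 2 replicates 2 and 5, and 3695 and 2460 without batch 3 replicates 3 and 6. Between batches 2 and 1 they were 1504 to 1615 without any 1 library of those batches, and 5475 and 5470 without batch 3 replicates 3 and 6. Between batches 2 and 3 they fell to 2283 and 1944 without batch 2 replicates 2 and 5. Of the 2413 genes that set batch 2 apart, 261 also differed between batches 1 and 3, beside 10.7% of all genes. The test that gave the 2413 counts the difference between batches 1 and 3 as spread, so this overlap is a description only. Of 40 cell cycle genes, 33 passed between batches 1 and 3, where 10.7% of all genes did. In batch 2 against both, 3 (Ccnd2, Mcm4, Mcm6) rose, beside 8.83% of all genes. Of the 40, 39 had a positive difference of batch 2 from both, 8 passed in DESeq2, and without batch 3, 19 rose and 0 fell in batch 2. The replication helicase subunit Mcm5 had 61.1 and 67.8 CPM in batch 2, 42.8 and 44.01 in batch 1, and 18.5 and 14.7 in batch 3, and it passed between batches 1 and 3 (adjusted p = 5.30e-05) and not for batch 2 against both (adjusted p = 0.0827 in edgeR). Interferon response genes also differed there, with 16 of 37 past the threshold between batches 1 and 3 and 5 lower in batch 2 (10 lower and 3 higher without batch 3); their median difference of batch 2 was -0.11 against batch 1 and -0.76 against batch 3.

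The treated libraries, which the untreated comparison did not use, gave the same sign for most of the 2413 genes. With treatment in the model, 1375 of 12437 autosomal genes (11.1%) passed between batch 2 and batches 1 and 3, 481 (3.87%) higher and 894 (7.19%) lower. With upper-quartile scaling the split was 671 higher and 748 lower. The count fell to 328 without the trap supernatant library of batch 2 and to 221 without its mast cell supernatant library. Of the 2413 genes, 2365 were tested there. Of these, 2340 had the same sign, 1095 passed in the same direction and 0 passed in the opposite direction. The share of all tested genes with the same sign in both was not counted, so the 2340 are a description without a baseline. Of those at least 2-fold higher, 182 of 270 passed again, and of those at least 2-fold lower, 252 of 383. All 8 stromal markers rose again, with a median of 3.13, and 8 of 12 class II genes fell again. For Acta2 the log2 difference was 3.35, adjusted p = 8.21e-06, for H2-Ab1 -3.12, adjusted p = 8.21e-06, and for Ctsk -4.05, adjusted p = 3.82e-04. Whether the batch 2 difference changed between untreated and treated libraries was tested in all 14 libraries. This is not a test of the supernatants themselves. In it 0 of 12574 genes (0%) passed in edgeR and 0 in DESeq2, with 409 under 0.05 before adjustment and a smallest adjusted p of 1. Leaving out 1 library gave at most 7 genes, without the trap supernatant library of batch 3, 3 without that of batch 2 and 1 without untreated batch 3 replicate 3. Treated and untreated libraries of a batch may share a culture, so they are not shown to be independent cultures.

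**Figure D5:**
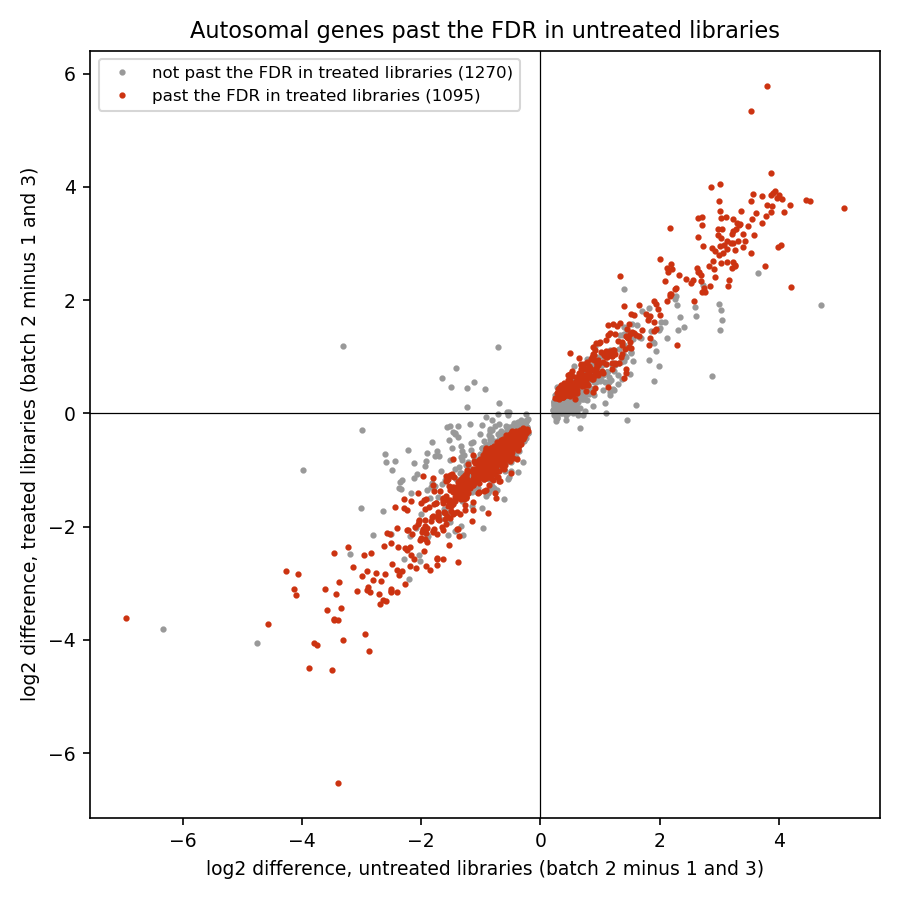
Log2 difference of batch 2 from batches 1 and 3 in untreated libraries (x axis) and treated libraries (y axis) for the 2365 autosomal genes past the threshold in untreated libraries and tested in both; each point is a gene, red where it also passed in treated libraries. Of these, 2340 lie in the quadrants of equal sign and 1095 are red.

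A last description took the genes by which a batch could be told in any single library. The description covers 22804 autosomal genes with counts. In 49 of them every one of the 4 batch 2 libraries lay at least 4-fold above each of the 10 others (CPM plus 0.1). In 12 genes every batch 2 library lay at least 4-fold below. For batch 1 there were 0 and 0 genes, and for batch 3 there were 0 higher and 3 lower: Lyz2, Gm15446 and Gm16867. Collagens such as Col1a1, Col3a1 and Col4a2 and the lysyl oxidase Lox were among the 49, and the 12 lower genes included Ctsk, H2-Ab1, H2-Eb1, H2-Aa, Mamdc2, Mmp8, Ak8, Ksr2 and F7. The secreted matrix protein Mamdc2 had 5.38 and 5.06 CPM in batch 2, 67.5 and 64.4 in batch 1, and 38.5 and 48.01 in batch 3 (log2 difference -3.39 ± 0.27, adjusted p = 1.17e-04). Coagulation factor VII, F7, had 3.58 and 4.64 CPM in batch 2, 30.5 and 30.3 in batch 1, and 27.1 and 33.6 in batch 3 (log2 difference -2.88 ± 0.16, adjusted p = 1.76e-05). The most abundant of the 49 was Dmpk, the kinase gene whose repeat expands in myotonic dystrophy, chosen after its values were seen: the untreated libraries had 97.7 and 115 CPM in batch 2, 19.3 and 16.8 in batch 1, and 15.6 and 7.68 in batch 3 (log2 difference 2.83 ± 0.26, adjusted p = 2.30e-04). No list here holds Dmpk.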

How the data were processed

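The deposited values are raw counts per gene, which the authors made with featureCounts 2.0.0 on GRCm38, per the submitters' processing notes. Aligner, annotation release and strand setting are not stated in the sources used here, so overlapping genes on opposite strands may share counts. Poly(A) RNA came from a Qiagen RNeasy kit and went into a stranded Illumina library preparation, per the labels' protocols. The table holds 47937 genes, of which 47310 matched GENCODE mouse release 21 by identifier; symbols and coordinates are from it, and 0 columns were left unused.

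The test was run with edgeR 4.0.16 under R 4.3.3: filterByExpr, TMM scaling, and the robust quasi-likelihood F test with Benjamini-Hochberg adjustment over all genes tested (13045 in the untreated comparison). The libraries of batches 1 and 3 formed 1 arm, so their difference counts as spread. CPM is counts scaled to library size, TMM-normalised except for Lyz2 and Lyz1 and in the description of all 14 libraries. TPM divides raw counts by exon length, without TMM. An adjusted p is from edgeR and ± is the standard error. DESeq2 1.42.0 and limma-voom (limma 3.58.1) were alternatives. The model was tested on simulated data.

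Genes were named by rule: the 12 largest differences in each direction with a mean of at least 5 CPM, up to 3 per list and direction with at least 1 CPM, a panel of macrophage genes, and the 15 highest by TPM. For the 12 largest, both batch 2 libraries also had to lie on the same side of all others. The members and lists were chosen with earlier results of these data known. The counts without batch 3 were added after seeing the data. Promoters are from RefSeq on GRCm38.p6. The CArG box was searched as CC, 6 bases of A or T, and GG, and the Y box as CTGATTGG, both on either strand. Intervals cover counting error only.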

Additional observations from a re-analysis of the deposited data

How the results depend on the processing

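No paired analysis was possible because, within a condition, the batches compared share no replicate number: each number there belongs to 1 batch.

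The count of genes that set batch 2 apart in untreated cells (2413) moved to 4210 with the 3 batches as separate groups, to 5338 against batch 1 only and to 312 with counts summed per batch. Scaling, filters, DESeq2 and limma-voom kept it within 1.5 times. The count between batches 1 and 3 was 2047 with no filter on low counts. Below, the difference between treated and untreated is the change in the batch 2 difference, not a supernatant effect. Leaving out 1 library gave 577 to 2826 genes for batch 2 against batches 1 and 3, 1504 to 5475 against batch 1, 1944 to 5778 against batch 3, 313 to 3695 between batches 1 and 3, 221 to 1278 in treated cells and 0 to 7 for the difference between treated and untreated. Lyz2, log2 difference of batch 2 (-0.09, adjusted p = 0.989 in edgeR), turned to 7.51 with 3 separate batches and to 16.08 against batch 3 only, where it had 1 count per library. Of the 131 genes named that passed, 57 stayed past the threshold with summed counts, 129 with DESeq2 and 126 with limma-voom, and 0 of the 131 turned direction in these. With 2 libraries a batch, depth limits genes under about 1 CPM.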
